A study of Ovis aries with 15 samples.

Results

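The genes described here build the glycans of secreted and membrane proteins: the enzymes that assemble the N-glycan precursor and transfer it to protein, the mannosidases that trim it, and the Golgi glycosyltransferases that add GlcNAc, GalNAc, galactose, sialic acid and fucose. They were taken by symbol families (ALG, DPAGT1, STT3, DDOST, RPN, MAN1 and MAN2, MGAT, GALNT, B3GNT, B3GALT, B4GALT2 to B4GALT7, ST3GAL, ST6GAL, ST8SIA and FUT) from the 24691 features of the deposited table, and kept where at least 10 exon reads were counted in at least 6 libraries. The symbols matched 91 features and 65 were kept. The 26 that were not kept had too few reads, and include MGAT3, FUT1, FUT3 and 5 of the 14 GALNT symbols. B4GALT1 lies outside the family pattern and is given with the neighbouring pathway genes. RPN1 was not found under that symbol.

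N-glycans are first built on the lipid dolichol at the endoplasmic reticulum membrane, moved as a block to asparagine residues by the oligosaccharyltransferase complex, and then trimmed and rebuilt in the Golgi. O-glycans of the mucin type start with a GalNAc on serine or threonine, which GALNT enzymes attach, and are lengthened in the Golgi. In the mammary gland the secretory epithelium glycosylates milk proteins such as kappa-casein and the proteins of the milk fat globule, and sialic acid and fucose are common end sugars.

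Mammary parenchyma was biopsied from Romney ewes that were 2 years old and carried or nursed their first lambs, in late pregnancy (day 135 of gestation) and again in lactation (day 15 post partum), and RNA pools were sequenced as 9 late pregnancy and 6 lactation libraries. The libraries also differ in how the dams of these ewes were fed in early gestation: ad libitum (HM), at maintenance (MM) or below maintenance (LM). Later in that gestation the dams of all groups were fed at maintenance, by the sample descriptions. Each dam nutrition group has 3 pools in late pregnancy and 2 in lactation. Each pool held 3 animals by the study's methods (3 in late pregnancy and 2 in lactation by the series text), drawn at random, so pools of the same animals can stand in both states and p-values measure the spread between pools. The tissue is a biopsy of all cell types, in which fewer cells of a type and less RNA per cell cannot be told apart.

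Between 6471237 and 24001031 reads per library entered the fits. The 65 members held 0.232 to 0.279% of the exon reads before birth and 0.0865 to 0.0993% after it, while the share of the milk protein genes went from 14.6 to 24.8% up to 73.0 to 77.6%. Of the reads of all other genes, the members' share was 0.300 to 0.338% in late pregnancy and 0.368 to 0.403% in lactation. All folds below are therefore on a trimmed-mean scale (TMM), on which the median of all 13345 tested genes moved by -0.03 (log2). With total reads as the only scale that median was -1.94. One library stood apart: 13.2% of the gene reads of lactation HM 1 lay outside exons, against 5.85 to 6.68% in the other lactation libraries and 14.4 to 16.1% in late pregnancy. Among the markers of other cells, those of leukocytes summed to 68.3 to 92.0 CPM (read counts per 1000000 on the TMM scale) in late pregnancy and 35.2 to 46.9 CPM in lactation (4 of 5 lower, 1 higher). Endothelial markers summed to 140.4 to 192 and 85.8 to 124 (3 of 3 lower), and fibroblast markers to 353 to 627 and 225 to 372 (3 of 4 lower). Luminal epithelial markers summed to 1417 to 1736 and 2290 to 2551 (4 of 6 higher), myoepithelial markers to 356 to 410 and 276 to 417 (1 higher and 2 lower of 4), and adipocyte markers to 4.63 to 22.7 and 5.52 to 14.7 (neither of the 2 tested was called). All 4 milk protein markers (CSN2, CSN3, LALBA and BLG) were higher in lactation. The part of cell composition in the differences below was not tested.

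Between late pregnancy and lactation, 31 members were higher in lactation and 23 lower at an adjusted p under 0.05 (edgeR quasi-likelihood test, Benjamini-Hochberg over all tested genes), and 11 were not called. These are 47.7 and 35.4% of the members, beside 33.1% of all tested genes called higher, 35.2% called lower and 68.4% called in either direction. The median log2 change of the members was 0.11. It was 0.14 above the median of all genes on the TMM scale, with upper quartile scaling and with total reads alone. The members' own median was negative on the last 2 scales. A change of scale alone shifts all genes by nearly the same amount, so this gap could hardly differ between scales. The gap was 0.09 with limma on the quantile-normalised RPKM and 0.19 when genes were not filtered. It was 0.36 among genes that never fell below 10 reads, which left 48 members. No library of one state reached into the other for 24 members that were higher and 12 that were lower. These are 36.9 and 18.5% of the members, beside 20.2% and 20% of all tested genes. Of the 23 lower members, 12 had met the read minimum through late pregnancy alone, where they were high. These are B3GNT1, B3GNT3, B4GALT4, B4GALT5, GALNT12, MGAT5, ST3GAL3, ST3GAL4, ST3GAL5, ST6GALNAC1, ST6GALNAC6 and ST8SIA4. Without lactation HM 1 the counts were 30 higher and 22 lower, no called member changed sign, and ST3GAL1 had the greatest shift, by 0.18.

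The counts are also given for both divisions of the set, put together after their values were seen. Among the enzymes that build, transfer, trim and branch N-glycans (precursor assembly, transfer to protein, mannose trimming and branching) 23 of 28 members were higher and 1 was lower on the TMM scale. These 28 hold all mannosidases of the set, also the lysosomal MAN2B1 (not called) and the cytosolic MAN2C1 (higher). In the other families (GalNAc transferases, galactose and GlcNAc extension, sialyltransferases and fucosyltransferases) 8 of 37 were higher and 22 lower. Of all tested genes 33.1% were called higher and 35.2% lower. Except for MGAT5, the 12 lower members that met the read minimum through late pregnancy alone all belong to the other families. Other than MAN1A1 and GALNT5, every higher call turned negative with total reads as the only scale, where the median of all genes is also negative.

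**Figure D1:**
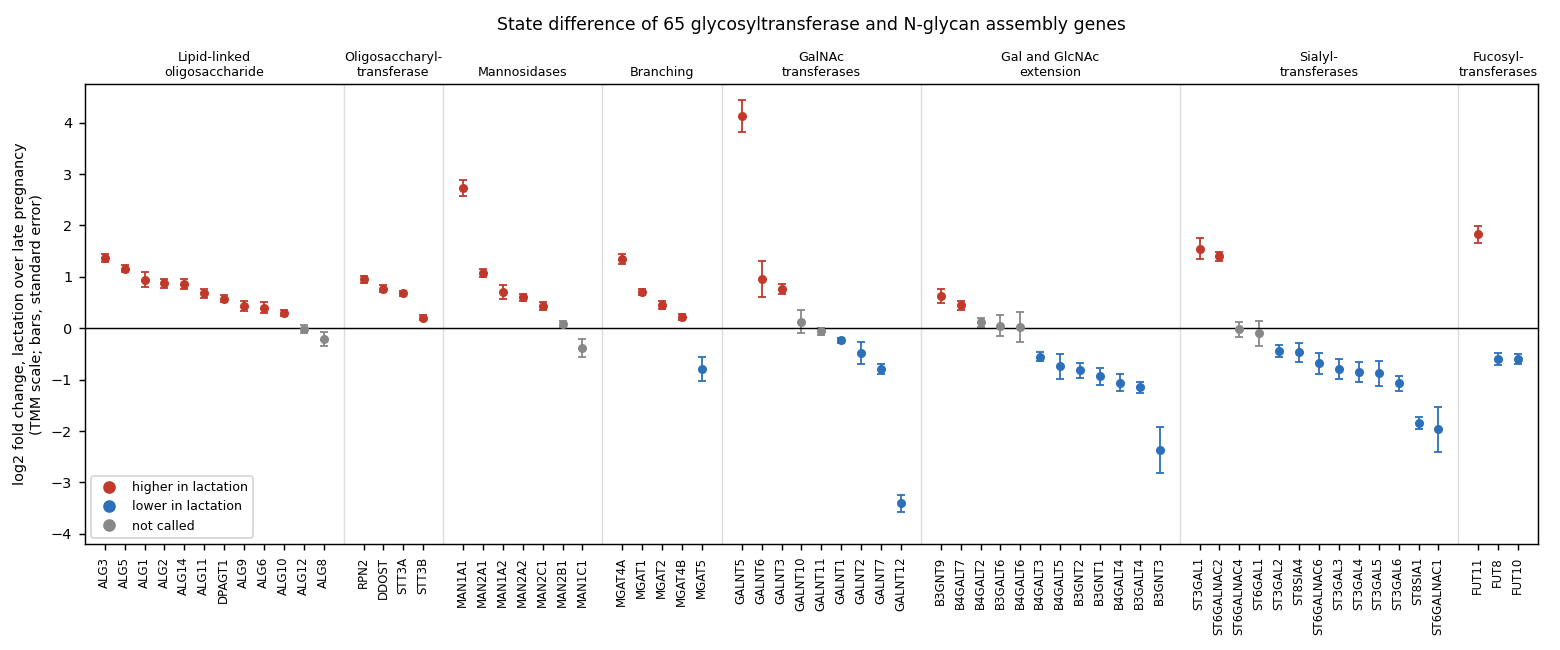
Log2 fold change of each of the 65 members, lactation over late pregnancy on the TMM scale, with its standard error, grouped by role and coloured by call. In the 4 groups on the left 23 members are higher and 1 is lower, and in the 4 on the right 8 are higher and 22 lower. This division was put together after the values were seen, and of all tested genes 33.1% are called higher and 35.2% lower. Of the lower members, 12 met the read minimum through late pregnancy alone, and all of these but MGAT5 are on the right. With total reads as the only scale, the higher calls other than MAN1A1 and GALNT5 turn negative.

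The 12 enzymes that build the precursor on dolichol include DPAGT1, which adds the first GlcNAc phosphate, and the ALG enzymes that add mannose and glucose in a fixed order. Of these, 10 were higher in lactation, 0 were lower by edgeR (0 by DESeq2, and 0 at an unadjusted p under 0.05) and 2 (ALG12 and ALG8) were not called. Both of these were called lower in other fits: ALG12 with limma on the quantile-normalised RPKM, ALG8 with upper quartile scaling, and both with total reads alone. The median change was 0.63, and the 10 turned negative with total reads alone. The summed level per kilobase of exon was 105 to 124 CPM in late pregnancy and 174 to 188 CPM in lactation, with no overlap.

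ALG3 adds the first mannose on the lumenal side and had the largest increase in the group. It measured 9.24 CPM in the lowest, 10.6 in the median and 12.0 in the highest late pregnancy library, and 25.1, 26.8 and 30.8 CPM in lactation. The libraries of the states were far apart, and the change was 1.37 ± 0.08 (log2, SE, n = 9 and 6, edgeR adjusted p = 5.08e-12). ALG5 makes dolichyl-phosphate glucose, the donor for the glucose cap. Its lowest, median and highest libraries were at 21.5, 25.8 and 30.7 CPM in late pregnancy and 49.4, 56.3 and 58.4 CPM in lactation, a change of 1.16 ± 0.07 (edgeR adjusted p = 3.96e-11). In level per kilobase ALG5 became the highest member of the group in lactation, at 44.9 ± 2.63 CPM (SD, n = 6), and its share of the group's summed level was 15.7 to 20.1% in late pregnancy and 23.0 to 25.9% in lactation.

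ALG12, a lumenal mannosyltransferase, had the highest mean in late pregnancy at 23.1 ± 2.94 CPM per kilobase (SD, n = 9). The late pregnancy libraries of ALG5, at 20.0 ± 2.48, overlapped those of ALG12. In lactation ALG12 had 22.8 ± 1.88 (SD, n = 6), and its change of -0.02 ± 0.08 did not pass (edgeR adjusted p = 0.844). With limma on the quantile-normalised RPKM it was -0.20 and passed (limma adjusted p = 0.0165). Both states overlapped for ALG12, at 32.5 to 50.9 and 35.2 to 44.9 CPM. The other 8 called members, from ALG10 (0.30) to ALG1 (0.95), include DPAGT1 at 0.57, ALG14 at 0.86 and the cytosolic mannosyltransferases ALG2 at 0.87 and ALG11 at 0.68. Of the 3 glucosyltransferases that close the precursor, ALG10 rose by 0.30 and ALG6 by 0.40, and ALG8 had a change of -0.21 that was not called (edgeR adjusted p = 0.153). ALG8 was called lower with upper quartile scaling (-0.36), with at least 10 reads in every library (-0.30), without late pregnancy MM 3 (-0.27) and without lactation HM 2 (-0.31). For ALG6 both states overlapped.

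The 4 measured oligosaccharyltransferase subunits were all higher in lactation on the TMM scale, with no overlap between the states, and all turned negative with total reads alone. On the TMM scale 33.1% of all tested genes were called higher, and 20.2% were higher without overlap. RPN2 and DDOST are non-catalytic subunits of the complex. RPN2 had 115, 126 and 158 CPM in its lowest, median and highest late pregnancy libraries and 223, 247 and 274 CPM in lactation, a change of 0.95 ± 0.07 (edgeR adjusted p = 1.2e-10). DDOST had 98.6, 111 and 126 CPM in late pregnancy and 171, 180.3 and 216 CPM in lactation, a change of 0.77 ± 0.06 (edgeR adjusted p = 2.21e-09). In both states these were the most abundant of all 65 members per kilobase, at 62.4 ± 6.42 and 68.4 ± 4.99 CPM in late pregnancy and 121 ± 8.63 and 117 ± 12.7 CPM in lactation, and their libraries overlapped each other in both.

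STT3A and STT3B are alternative catalytic subunits: STT3A works mainly while the protein is being made and STT3B mainly afterwards. STT3A had 100.3, 107 and 118 CPM in late pregnancy and 159, 171 and 186 CPM in lactation, a change of 0.68 ± 0.05 (edgeR adjusted p = 2.54e-10). STT3B had 68.1, 75.5 and 77.9 CPM in late pregnancy and 83.9, 86.2 and 90.2 CPM in lactation. Its change of 0.21 ± 0.04 was small beside a tight spread (edgeR adjusted p = 0.000232), and the call was lost with upper quartile scaling and with limma on the quantile-normalised RPKM. STT3B made up 9.27 to 10.997% of the summed level of the 4 subunits in late pregnancy and 6.55 to 7.67% in lactation.

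Of the 7 mannosidases 5 were higher in lactation and 0 were lower by edgeR, with MAN2B1 and MAN1C1 not called. DESeq2 called 1 lower (MAN1C1), which was also the 1 that was lower at an unadjusted p under 0.05. MAN1A1, MAN1A2 and MAN1C1 are Golgi enzymes that remove the outer mannoses. MAN1A1 (chr8:18757727-18928199) was the lowest of the group per kilobase in late pregnancy. It had 2.97, 3.36 and 4.16 CPM in its lowest, median and highest libraries there, and 11.7, 23.6 and 30.2 CPM in lactation. The lactation libraries spread widely and all lay above every late pregnancy library, with a change of 2.73 ± 0.16 (edgeR adjusted p = 8.19e-12). MAN1A2 had a range of 6.002 to 10.1 CPM in late pregnancy and 9.02 to 16.5 CPM in lactation, which overlap, and a change of 0.71 ± 0.13 (edgeR adjusted p = 0.000109). MAN1C1 went the other way and narrowly missed the threshold (-0.39, edgeR adjusted p = 0.0505), and it was called lower in several alternatives, at -0.54 with upper quartile scaling.

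MAN2A1 and MAN2A2 are the Golgi enzymes that take the last mannoses off before complex glycans can form. MAN2A1 had 47.0, 62.5 and 69.5 CPM in late pregnancy and 114, 129 and 152 CPM in lactation, a change of 1.07 ± 0.08 (edgeR adjusted p = 1.95e-10). Its mean per kilobase was the highest of the mannosidases in lactation, at 32.0 ± 3.52 CPM, with libraries that overlapped those of MAN2B1 and MAN2C1. MAN2A2 had 26.5, 31.5 and 36.1 CPM in late pregnancy and 41.8, 47.4 and 52.4 CPM in lactation, a change of 0.60 ± 0.07 (edgeR adjusted p = 8.76e-08). MAN2B1, the lysosomal enzyme that degrades glycans, had been the highest in late pregnancy at 27.3 ± 1.83 CPM per kilobase and had 28.9 ± 2.96 in lactation. Its change of 0.08 ± 0.06 did not pass (edgeR adjusted p = 0.242) but did without lactation HM 2 (0.13), and its libraries overlapped at 91.9 to 112 and 86.3 to 119 CPM. MAN2C1, the cytosolic enzyme, rose by 0.43 with overlapping libraries. With total reads alone the higher calls of this group other than MAN1A1 turned negative.

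Of the 5 GlcNAc transferases that open branches, 4 were higher in lactation (and negative with total reads alone) and 1 was lower. MGAT1 adds the GlcNAc without which no hybrid or complex glycan is made. It had 40.5, 43.6 and 51.0 CPM in late pregnancy and 63.7, 72.5 and 77.6 CPM in lactation, a change of 0.71 ± 0.06 (edgeR adjusted p = 1.15e-09). Its mean was the highest of the group in lactation, at 23.3 ± 1.64 CPM per kilobase. MGAT4B (22.3 ± 1.64) lay above it in lactation HM 1, LM 1 and LM 2. MGAT2, which opens the next branch, rose by 0.45 with ranges that overlapped.

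MGAT4A and MGAT4B open the same further branch. MGAT4A had 7.65, 9.36 and 10.99 CPM in late pregnancy and 19.0, 24.1 and 32.3 CPM in lactation, a change of 1.35 ± 0.10 (edgeR adjusted p = 5.13e-10) with no overlap. MGAT4B, the highest of the group in late pregnancy at 19.2 ± 1.28 CPM per kilobase, had 36.6 to 45.1 CPM there and 41.3 to 49.7 CPM in lactation. Its change of 0.21 ± 0.06 (edgeR adjusted p = 0.0028) was lost with upper quartile scaling and with limma. MGAT5, which makes the beta-1,6 branch, was scarce and lower in lactation, at 1.01, 2.13 and 2.52 CPM and then 0.761, 1.18 and 1.57 CPM, a change of -0.80 ± 0.24 (edgeR adjusted p = 0.0052) with overlapping libraries. MGAT5 met the read minimum through late pregnancy alone, where it was high.

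**Figure D2:**
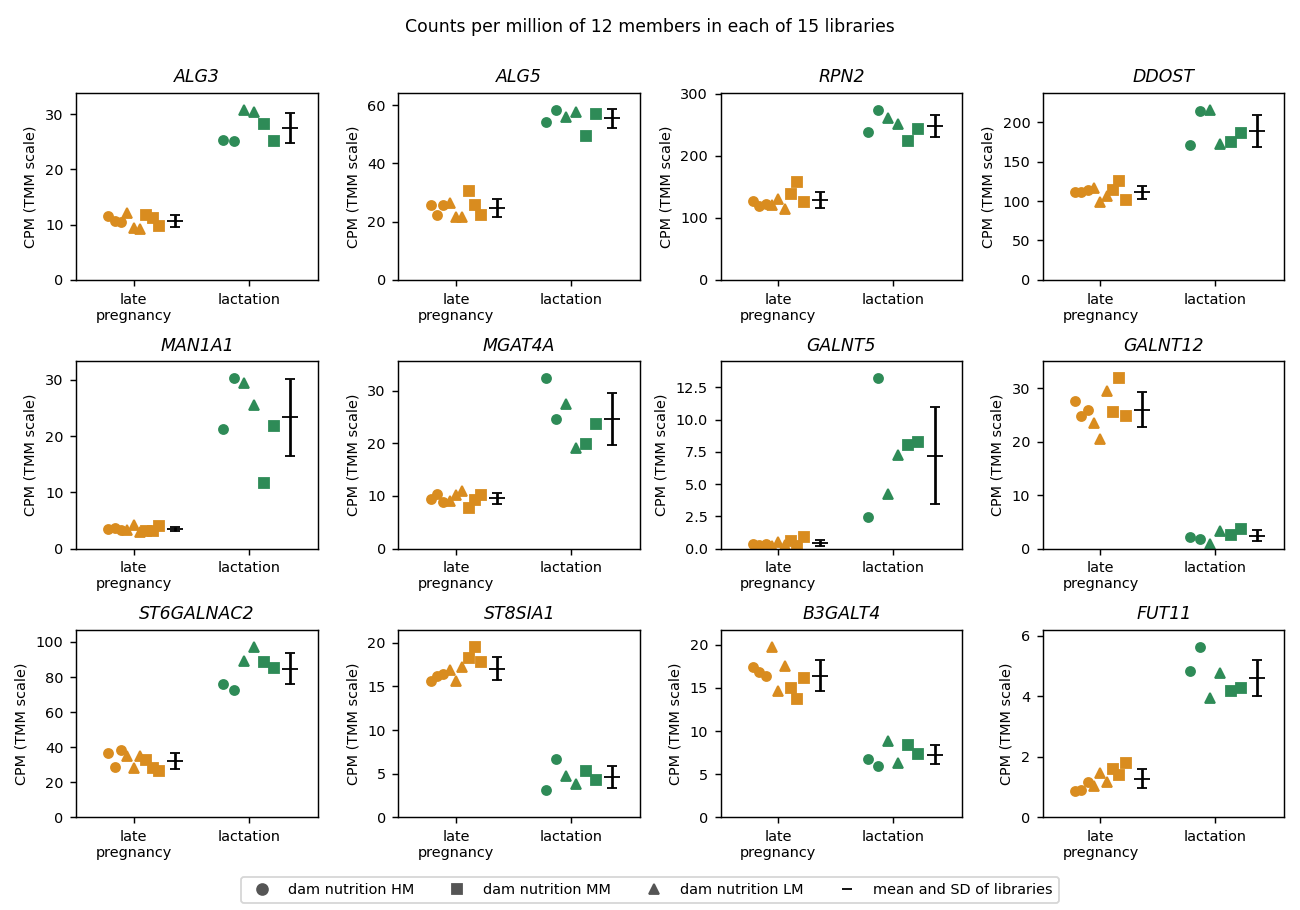
CPM on the TMM scale of 12 members in each of the 15 libraries, with dam nutrition as the marker shape and the mean and SD of each state in black. The 9 late pregnancy and 6 lactation libraries do not overlap in any panel, and GALNT12, ST8SIA1 and B3GALT4 are the ones that are lower in lactation. With total reads as the only scale the higher panels other than MAN1A1 and GALNT5 turn negative.

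The GalNAc transferases start mucin-type O-glycans, and they held the largest change in each direction. Of the 9 members 3 were higher in lactation, 4 were lower and 2 (GALNT10 and GALNT11) were not called. These counts are near the shares of all tested genes (33.1% higher and 35.2% lower). With limma on the quantile-normalised RPKM GALNT10 was called higher (0.18) and GALNT11 lower (-0.15), and GALNT11 was also called lower with upper quartile scaling (-0.21). GALNT3 and GALNT6 turned negative with total reads alone, and GALNT5 did not. The median change of -0.06 covers a range from -3.41 to 4.13.

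GALNT5 (chr2:151268426-151307588) had 0.198, 0.369 and 0.905 CPM in its lowest, median and highest late pregnancy libraries and 2.42, 7.62 and 13.2 CPM in lactation. It was scarce before birth and spread widely among the lactation libraries, but no lactation library was as low as any of late pregnancy. The change was 4.13 ± 0.32 (edgeR adjusted p = 5.17e-10), 17.5-fold. GALNT5 met the read minimum through the 6 lactation libraries alone, since 3 of the 9 late pregnancy libraries had 10 reads and the highest had 15, so a difference was built into its choice and the fold rests on few reads. GALNT12 (chr2:48671996-48703878), on the same chromosome, had 20.5, 25.5 and 31.8 CPM in late pregnancy and 0.949, 2.36 and 3.72 CPM in lactation. The change was -3.41 ± 0.17 (edgeR adjusted p = 7.44e-13), a level 10.6-fold higher in late pregnancy, and the largest decrease of all members. GALNT12 met the read minimum through late pregnancy alone, where it was high, and had 10 reads in 5 of the 6 lactation libraries.

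The make-up of the family changed accordingly. Per kilobase, GALNT12 held 20.5 to 29.2% of the summed level of the 9 enzymes in late pregnancy and 1.15 to 4.15% in lactation. GALNT3 held 14.8 to 17.1% and then 27.1 to 38.0%, with 27.7 to 31.6 CPM in late pregnancy and 38.2 to 68.7 CPM in lactation, a change of 0.77 ± 0.09 (edgeR adjusted p = 3.65e-07). GALNT1 had the highest mean in both states, at 20.2 ± 1.05 and 17.1 ± 0.518 CPM per kilobase. It kept about the same share, 29.8 to 35.8% and 28.8 to 37.1%. GALNT3, at 16.5 ± 3.75 CPM per kilobase in lactation, lay above GALNT1 in HM 2 and LM 2 of that state. GALNT1 had 76.0, 78.9 and 87.5 CPM in late pregnancy and 64.7, 69.3 and 69.7 CPM in lactation, a small decrease of -0.24 ± 0.05 (edgeR adjusted p = 0.000146) without overlap. GALNT7, which extends the work of other GalNAc transferases, fell by 0.79. GALNT6 (0.95, edgeR adjusted p = 0.0193) and GALNT2 (-0.49, edgeR adjusted p = 0.0495) were close to the threshold, and neither call was kept without lactation HM 1.

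**Figure D3:**
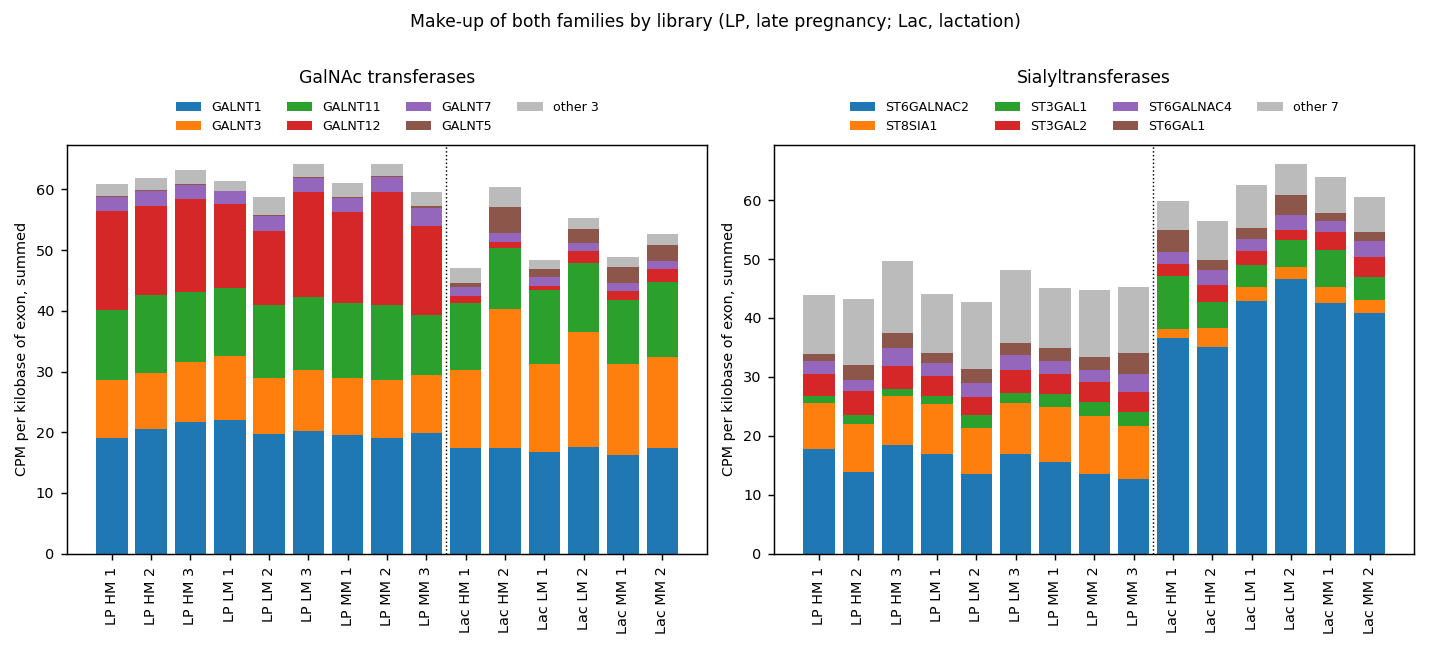
Summed CPM per kilobase of exon of the GalNAc transferases (left) and sialyltransferases (right) in each library, stacked by enzyme, with the less abundant ones in grey. In the GalNAc transferases GALNT12 (red) shrinks from 20.5 to 29.2% of the stack to 1.15 to 4.15%, and in the sialyltransferases ST6GALNAC2 (blue) grows from 28.1 to 40.3% to 61.1 to 70.6%.

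The 12 enzymes of galactose and GlcNAc extension summed to 52.6 to 59.6 CPM per kilobase in late pregnancy and 41.1 to 47.7 CPM in lactation. Of these, 2 were higher in lactation (B3GNT9 and B4GALT7, both negative with total reads alone), 7 were lower and 3 were not called. The shares of all tested genes were 33.1% higher and 35.2% lower. Among the lower ones, B3GNT1, B3GNT3, B4GALT4 and B4GALT5 met the read minimum through late pregnancy alone, where they were high. B4GALT3, which adds galactose to GlcNAc, had the highest mean in both states, at 14.9 ± 1.74 and 10.2 ± 1.31 CPM per kilobase. In lactation B4GALT2 was close, at 10.0 ± 1.08, and lay above B4GALT3 in HM 2 and LM 1. B4GALT3 had 24.2, 28.4 and 35.6 CPM in late pregnancy and 15.5, 20.5 and 22.8 CPM in lactation, a change of -0.55 ± 0.09 (edgeR adjusted p = 1.92e-05) without overlap. B3GALT4, which acts on ganglioside glycolipids, had 13.8, 16.4 and 19.7 CPM in late pregnancy and 5.98, 7.07 and 8.82 CPM in lactation, a change of -1.15 ± 0.10 (edgeR adjusted p = 5.39e-09).

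The other lower members of the group were B4GALT4 (-1.06), B3GNT1 (-0.94), B3GNT2 (-0.81), which extends poly-lactosamine chains, B4GALT5 (-0.74) and B3GNT3. B3GNT3 was near the counting limit: 120 reads in the 9 late pregnancy libraries against 5 in the 6 lactation libraries, of which 3 had none, a rate ratio of 0.182 (95% interval 0.0582 to 0.438 for counting error only). B3GNT9 had 4.61, 6.04 and 6.72 CPM in late pregnancy and 5.19, 9.12 and 12.1 CPM in lactation (0.63 ± 0.14, edgeR adjusted p = 0.0004). The annotated span of B3GNT9 overlaps 4 other genes (FBXL8, HSF4, NOL3 and TRADD), and the library kit does not mark strand, so reads of these genes cannot be told apart where exons overlap. B4GALT7 rose by 0.45 (edgeR adjusted p = 8.63e-05) and B3GALT6 had 0.05 (edgeR adjusted p = 0.828). Both build the linker of proteoglycans.

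Among the 13 sialyltransferases 9 were lower in lactation and 2 higher, where 35.2% of all tested genes were called lower and 33.1% higher. Of the lower ones, ST3GAL3, ST3GAL4, ST3GAL5, ST6GALNAC1, ST6GALNAC6 and ST8SIA4 met the read minimum through late pregnancy alone, where they were high. A lower level in lactation was thus favoured by their choice. The summed level of the group per kilobase went up, from 42.7 to 49.7 CPM to 56.4 to 66.1 CPM. Without ST6GALNAC2 the other 12 summed to 26.2 to 32.5 CPM in late pregnancy and 19.4 to 23.2 CPM in lactation. ST6GALNAC2 (chr11:54178315-54196421), which attaches sialic acid to the GalNAc of O-glycans, had 26.4, 32.5 and 38.4 CPM in late pregnancy and 72.8, 86.7 and 97.1 CPM in lactation, a change of 1.40 ± 0.09 (edgeR adjusted p = 1.63e-11). Its share of the summed level was 28.1 to 40.3% in late pregnancy and 61.1 to 70.6% in lactation, and per kilobase it was the highest sialyltransferase in both states. ST3GAL1, which caps the core 1 O-glycan, had 2.35, 3.35 and 4.79 CPM in late pregnancy and 7.46, 9.06 and 18.2 CPM in lactation (1.54 ± 0.20, edgeR adjusted p = 1.21e-06) without overlap. Both higher members turned negative with total reads alone.

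Of the enzymes lower in lactation, ST8SIA1 was the highest per kilobase in late pregnancy, at 8.59 ± 0.652 CPM. In lactation it had 2.34 ± 0.633 CPM per kilobase. It makes the disialo ganglioside GD3, and had 15.6, 16.9 and 19.5 CPM in late pregnancy and 3.08, 4.52 and 6.68 CPM in lactation, a change of -1.85 ± 0.11 (edgeR adjusted p = 1.59e-11). It held 16.6 to 22.01% of the group's summed level before birth and 2.59 to 5.97% afterwards. ST6GALNAC1, which acts on the same GalNAc as ST6GALNAC2, went the opposite way at low level: 0.836, 1.63 and 2.43 CPM in late pregnancy and 0, 0.300 and 1.24 CPM in lactation (-1.97 ± 0.44, edgeR adjusted p = 0.000541). Its highest lactation library, MM 2, lay within the late pregnancy range, and the change was -2.95 without it.

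The other 7 lower members ran from ST3GAL2 (-0.44) to ST3GAL6 (-1.07) and include ST3GAL5 (-0.88), the GM3 synthase at the start of the gangliosides. ST8SIA4, a polysialyltransferase (-0.47, edgeR adjusted p = 0.0347), lost its call in several alternatives. ST6GAL1, the alpha-2,6 sialyltransferase of N-glycans, had 2.08, 3.55 and 5.50 CPM in late pregnancy and 2.25, 2.65 and 5.71 CPM in lactation and was not called (-0.10 ± 0.24, edgeR adjusted p = 0.724). ST3GAL4, which puts an alpha-2,3 sialic acid on similar chains, had 2.08, 3.104 and 3.62 CPM in late pregnancy and 0.879, 1.47 and 2.47 CPM in lactation, a change of -0.85 ± 0.20 (edgeR adjusted p = 0.000927) with overlapping libraries. The leukocyte, endothelial and fibroblast markers above were also lower in lactation, and their part in these decreases was not tested.

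The 3 fucosyltransferases did not overlap between the states and went both ways, where 20.2% of all tested genes were higher without overlap and 20% lower. FUT8, which adds core fucose to N-glycans, had 9.40, 10.5 and 11.6 CPM in late pregnancy and 4.62, 6.30 and 9.22 CPM in lactation (-0.59 ± 0.12, edgeR adjusted p = 0.000159). FUT10 had 6.03, 6.34 and 7.22 CPM and then 3.52, 3.97 and 5.13 CPM (-0.60 ± 0.10, edgeR adjusted p = 2.31e-05) and was the highest of the 3 per kilobase in late pregnancy, at 4.47 ± 0.285 CPM. FUT11 had 0.876, 1.18 and 1.81 CPM in late pregnancy and 3.93, 4.52 and 5.63 CPM in lactation (1.83 ± 0.16, edgeR adjusted p = 5.83e-09; negative and not called with total reads alone). It held 7.41 to 13.3% of the summed level of the 3 in late pregnancy and 30.6 to 46.4% in lactation. Sums over the 3 overlapped between states, at 8.34 to 9.65 and 7.44 to 9.67 CPM per kilobase.

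Ratios between members that do the same or alternative steps cancel the scale of a library, apart from the pseudocount added to each value. Each was taken within a library as the log2 ratio of RPKM (reads per kilobase of exon and 1000000 mapped reads) plus 0.01, and the states were compared with an exact two-sided permutation test over the libraries, adjusted over the 7 pairs. MAN1A1 over MAN1A2 ran from -1.18 to -0.46 in late pregnancy and from 0.35 to 1.64 in lactation, so MAN1A1 passed from the lesser to the greater of the pair in every library. The difference was 1.96 (exact p = 0.0004, the smallest this test can give with 9 and 6 libraries; adjusted p = 0.00093). MGAT4A over MGAT4B ran from -3.02 to -2.41 and from -1.98 to -1.17, a difference of 1.13 at the same exact p, and MGAT4B remained the more abundant in all libraries. STT3A over STT3B ran from 0.93 to 1.11 and from 1.34 to 1.58, a ratio of 2.03 in late pregnancy and 2.81 in lactation, also at the smallest exact p.

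MAN2A1 over MAN2A2 differed by 0.47 (adjusted exact p = 0.0028), with ranges that overlapped. ST3GAL4 met the read minimum through late pregnancy alone, where it was high, so its choice favoured a higher ST6GAL1 over ST3GAL4 ratio in lactation. ST6GAL1 over ST3GAL4 differed by 0.81 (adjusted exact p = 0.00448), but lactation HM 1 lay far above the rest. Without it the difference was 0.48 (adjusted exact p = 0.0112), and with a pseudocount of 1 RPKM it was 0.28 and did not pass (adjusted exact p = 0.0619). GALNT1 over GALNT2 (0.23, adjusted exact p = 0.301) and B4GALT5 over B4GALT6 (-0.63, adjusted exact p = 0.106) did not pass. With a pseudocount of 1 RPKM both passed, the first with its direction turned (-0.80, adjusted exact p = 0.000699) and the second at -0.53 (adjusted exact p = 0.00168). The second also passed without lactation HM 1 (-0.82, adjusted exact p = 0.0431). Both B4GALT5 and B4GALT6 met the read minimum through late pregnancy alone, so their choice can bear on this ratio.

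**Figure D4:**
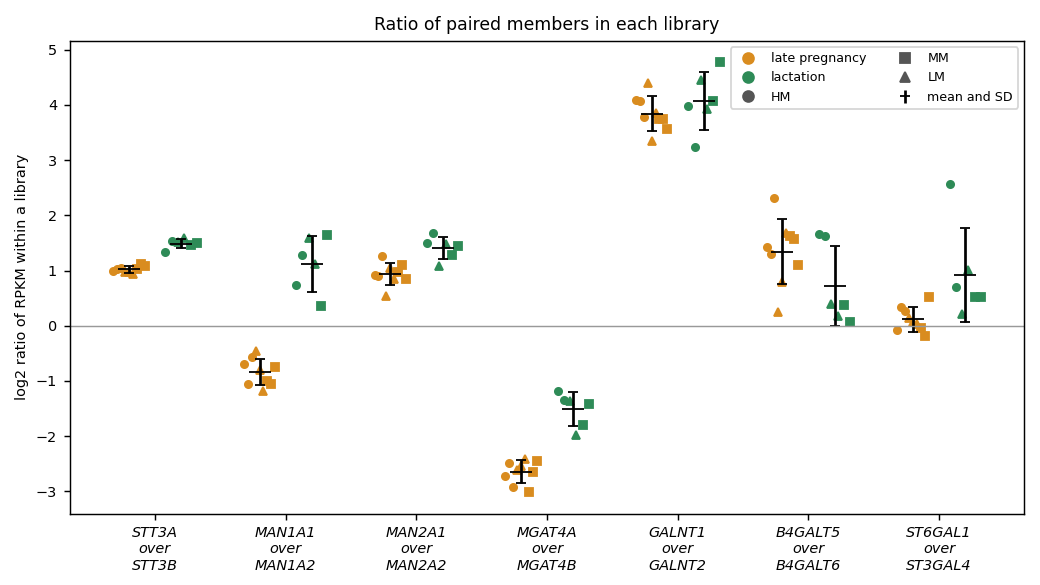
Log2 ratio of RPKM of 7 pairs within each library, with the mean and SD of each state in black. The states do not overlap for STT3A over STT3B, MAN1A1 over MAN1A2 and MGAT4A over MGAT4B, and lactation HM 1 is the point at 2.57 for ST6GAL1 over ST3GAL4.

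Reads that fell on introns give a second readout that the choice of members did not use. They come from unspliced RNA, retained introns or exons not annotated. Of 53 members with enough intron reads, 16 were higher in lactation and 14 lower, against 29% and 29% of the 10344 genes tested. These are 30.2 and 26.4% of the members. Without lactation HM 1 the counts were 15 and 14. With total intron reads as the only scale, chosen after the data were seen, they were 5 and 33, where the median of all genes was -0.63. On exons and introns 14 members were both higher and 9 both lower. The share of all genes called the same way on both readouts is not given, so nothing particular to the members is read from these counts. MAN1A1 (3.25 on introns), MAN2A1 (1.38), ST3GAL1 (1.74) and STT3A (0.83) had intron changes of a size close to or above those on exons, as did GALNT12 (-3.44) and ST8SIA1 (-1.60) among the decreases. ALG3 had 0.21 on introns (edgeR adjusted p = 0.424) against 1.37 on exons, and ALG5 had 0.29 (edgeR adjusted p = 0.0441) against 1.16. The differences between both readouts were not tested.

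For 4 members the calls were opposite on the TMM scale. FUT8 was lower on exons and higher on introns (2.94, edgeR adjusted p = 2.95e-06). Its intron reads numbered 894 to 2829 in late pregnancy and 1059 to 11798 in lactation, with the highest value in HM 1, and without that library the change was 1.59 (edgeR adjusted p = 1.62e-10). With total intron reads as the only scale it was 1.91. ST8SIA4 was also lower on exons and higher on introns on the TMM scale (0.30, edgeR adjusted p = 0.0358), but with total intron reads alone its change was -0.28 and was not called (edgeR adjusted p = 0.134). Per 1000000 intron reads it had 119 to 173 in late pregnancy and 47.1 to 172 in lactation, which overlap. ALG6 (-0.70) and DPAGT1 (-1.24) were higher on exons and lower on introns, DPAGT1 with at most 39 intron reads in a library.

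**Figure D5:**
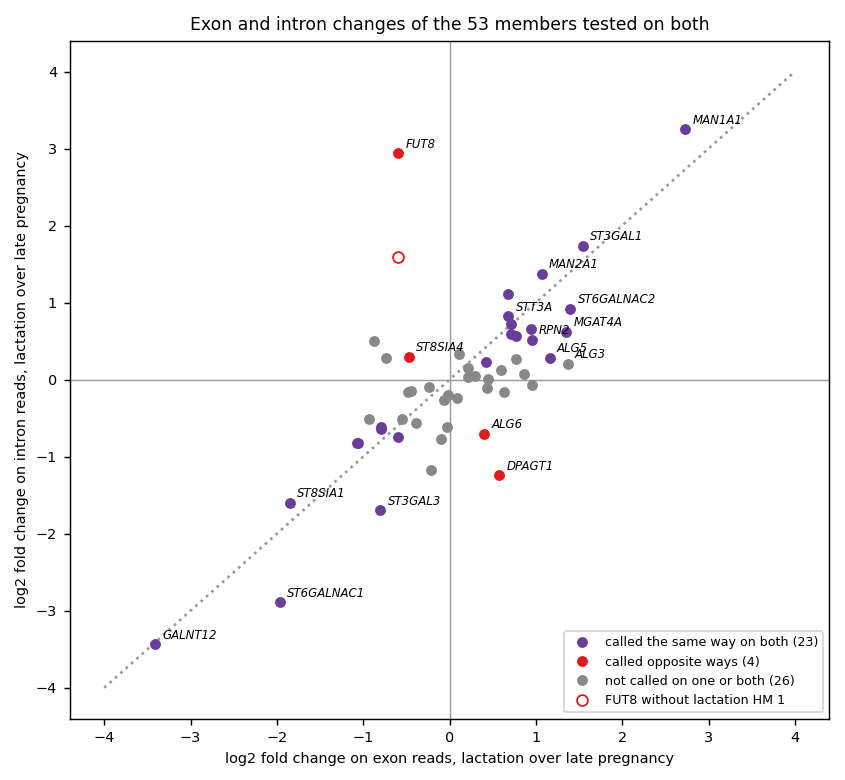
Log2 change on intron reads against that on exon reads for the 53 members tested on both, lactation over late pregnancy on the TMM scale, with equality as a dotted line. Members called the same way number 23 and members called opposite ways 4, and FUT8 moves from 2.94 to 1.59 on introns without lactation HM 1 (open circle). The matching shares of all genes are not given.

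No member was called for how the dams of the ewes had been fed. In late pregnancy 0 of 65 members were called for a difference among HM, MM and LM by edgeR and 0 by DESeq2 (0% of all genes), and 3 had an unadjusted p under 0.05, where 4.15% of all genes did. In lactation 0 of 59 tested members were called by edgeR and 0 by DESeq2 (0.00849% of all genes), and 4 had an unadjusted p under 0.05, where 7.61% of all genes did. The interaction of dam nutrition and state called 0 of 65 by edgeR and 0 by DESeq2 (0% of all genes), with 5 at an unadjusted p under 0.05, where 6.56% of all genes had one. The smallest p in late pregnancy was that of ST3GAL1 (edgeR adjusted p = 1.00), which had 2.35, 3.199 and 2.51 CPM in HM, 2.68, 4.36 and 3.35 CPM in LM and 4.60, 4.56 and 4.79 CPM in MM. The MM pools were the highest, but not by enough for a test across all genes. All LM libraries were run in lane 8, and of the other 10 libraries 7 were run in lane 7 and 3 in lane 8, so lane and dam nutrition overlap in part.

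Neighbouring genes of the route were taken from lists outside the symbol families. Of 67 listed, 62 were in the table and 60 were tested, and 44 were higher in lactation and 9 lower, with a median change of 0.48. Of all tested genes 33.1% were called higher and 35.2% lower, which is the background for each list below. Among the makers of dolichol and its sugar donors 9 of 10 were higher, led by the dolichol kinase DOLK, with 8.68, 11.04 and 13.4 CPM in late pregnancy and 29.0, 39.8 and 41.7 CPM in lactation (1.75 ± 0.09, edgeR adjusted p = 5.27e-13). Of other oligosaccharyltransferase subunits 4 of 5 were higher, from OSTC (0.34) to KRTCAP2 (0.61), and TUSC3 was not called. Of the glucosidases and folding sensors 10 of 11 were higher and UGGT2 was lower (-0.72). EDEM3, which marks misfolded glycoproteins for disposal, rose most (1.80). Sugar nucleotide synthesis had 14 of 18 higher and 2 lower, with UGP2 (1.70), PGM3 (1.48) and GFPT1 (1.40) at the top and the sialic acid synthase NANS (-0.20) and GMDS (-0.27) lower. The other listed genes of sialic acid supply in this list did not fall: GNE (1.18) and NANP (0.48) were higher, and CMAS (0.14) was not called.

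Of the Golgi carriers SLC35C1, which imports GDP-fucose, had the largest change in these lists. It had 13.0, 21.8 and 23.2 CPM in late pregnancy and 87.0, 96.4 and 116 CPM in lactation (2.26 ± 0.09, edgeR adjusted p = 5.09e-14). The UDP-galactose carrier SLC35A2 also rose (1.71), while the CMP-sialic acid carrier SLC35A1 was lower (-0.64, edgeR adjusted p = 8.9e-07). Among 12 tested O-glycan core enzymes and other glycosyltransferases 4 were higher and 5 lower, near the shares of all tested genes. B4GALT1, the galactosyltransferase that forms lactose synthase with alpha-lactalbumin, had 178, 233 and 266 CPM in late pregnancy and 925, 1056 and 1156 CPM in lactation (2.19 ± 0.08, edgeR adjusted p = 3.67e-15). Per kilobase it had 685 ± 57.5 CPM in lactation. B4GALT3, the member of that family in the set with the highest mean, had 10.2 ± 1.31. B4GALNT3 fell by 1.58, and GCNT1, which branches core 1 O-glycans, fell by 1.47.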

How the data were processed

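RNA pools were sequenced as paired 100 base reads on an Illumina Hi-Seq. Per the study's methods and the submitters' notes, the authors mapped reads with CLC Genomics Workbench to the sheep genome (version 3.2 in the methods, Oar_v3.1 in the notes; coordinates are those of the deposited table). The deposited counts are raw exon and whole-gene reads per gene, and the deposited RPKM values are exon reads per kilobase and 1000000 mapped reads. The table also holds quantile-normalised RPKM made by the authors, and columns of their own Baggerly comparison that were not used. A gene's intron reads are whole-gene less exon reads, for genes with an annotated transcript (whole-gene reads were used for the 5583 features without one).

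Counts were filtered with filterByExpr by state, scaled by TMM and tested with the edgeR 4.0.16 quasi-likelihood test in R 4.3.3, with Benjamini-Hochberg adjustment over all tested genes and a threshold of 0.05. All 65 members were tested. The read minimum in 6 libraries was met through late pregnancy alone by 15 members, through lactation alone by GALNT5 and through both together by GALNT6. In all, 17 members had under 10 reads in some library, and limma 3.58.1 and DESeq2 1.42.0 were alternatives. Pair ratios used log2(RPKM + 0.01) and exact permutation tests (scipy 1.17.1). A level per kilobase is CPM divided by exon length. Precision follows the depth of 6471237 to 24001031 counts per library, and the interval of B3GNT3 covers counting error only. No 2 libraries agreed within sampling noise (the smallest chi-square per degree of freedom was 5.74). The fits were also run on simulated data in which a minority of genes changed and the shift of milk protein reads was not built in. The scaling between the states was thus not tested there.

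Members and gene lists were chosen with earlier results of these data known. In each role group, values were given for the called members with the largest increase and decrease above 1 CPM, the highest member per kilobase in each state, all oligosaccharyltransferase members and the members of pairs that differed; GALNT3, ST8SIA1, B3GNT3, FUT8 and the members with opposite exon and intron calls were named after their values were seen. Replicate numbers are shared between the states, but pools were drawn at random.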

Additional observations from a re-analysis of the deposited data

Results flagged for a closer look

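Of 76 groups of libraries checked (named members, pair ratios and 2 library measures in each state), 6 held a library whose gap to its nearest neighbour was too large a part of the group's range by Dixon's criterion at 95%. Chance gives about 1 in 20. In lactation HM 1, 13.2% of gene reads lay on introns, against 5.85 to 6.68% in the others, and the log2 ratio of ST6GAL1 over ST3GAL4 was 2.57, against 0.21 to 1.01. ST6GALNAC1 had 1.24 CPM in lactation MM 2 and 0 to 0.407 CPM in the others. MAN2A1 had 47.0 CPM in late pregnancy LM 1 and 60.2 to 69.5 CPM in the others. STT3B had 68.1 CPM in late pregnancy MM 3, where the others had 73.2 to 77.9 CPM. The members took 0.338% of the reads outside milk protein genes in late pregnancy MM 2, and 0.301 to 0.313% in the others.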

How the results depend on the processing

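Of 271 recomputed main results, 255 kept their direction and their side of the threshold or moved little, and of 775 recomputed changes of named genes, 726 did. Most of both were refits without 1 library, and most main results that changed came from the other alternatives. With total reads as the only scale, 2 members were higher and 61 lower, the members' median was -1.80 (-1.94 for all genes) and these changes of named genes turned negative: ALG3 -0.54, ALG5 -0.74, RPN2 -0.96, DDOST -1.14, STT3A -1.23, STT3B -1.70, MAN1A2 -1.20, MAN2A1 -0.84, MAN2A2 -1.31, MAN2B1 -1.82, MGAT1 -1.20, MGAT4A -0.55, MGAT4B -1.69, B3GNT9 -1.27, ST3GAL1 -0.35, ST6GALNAC2 -0.50 and FUT11 -0.079. With upper quartile scaling the median was -0.036 (-0.18 for all genes) and MAN2B1 had -0.066. With limma on quantile-normalised RPKM MAN2B1 had -0.12 and ST6GAL1 0.038, and ALG12 (-0.20), GALNT10 (0.18) and GALNT11 (-0.15) gained calls. Upper quartile scaling added calls for ALG8, GALNT11 and MAN1C1, all lower. With at least 10 reads in every library 48 members were tested, 13 were lower and the median was 0.35. With that minimum on introns 10 were higher and 6 lower, and with total intron reads as the only scale, added after the data were seen, 5 and 33. With a pseudocount of 1 RPKM the differences of GALNT1 over GALNT2, B4GALT5 over B4GALT6 and ST6GAL1 over ST3GAL4 were -0.80, -0.53 and 0.28. The last did not pass, and the first 2 did. The cause was not tested for the changes other than those from fewer genes tested.

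Leaving out 1 library at a time gave 30 to 31 members higher and 21 to 24 lower, a median of 0.078 to 0.14, and on introns 12 to 15 higher and 12 to 16 lower. The difference of B4GALT5 over B4GALT6 was -0.82 to -0.50, and the changes of ALG12 (-0.059 to 0.025) and ST6GAL1 (-0.27 to 0.019), not called, crossed 0. GALNT2 lost its call in most of these fits. Samples with the same number in both states did not deviate together (correlations of -0.03 to 0.06), and a replicate block in the fit gave 31 members higher and 22 lower, lost the call of GALNT2 and gave ST6GAL1 0.029. Depth limits B3GNT3, GALNT5, GALNT6 and ST6GALNAC1, which had few reads in a state.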
